A study of Rattus norvegicus with 6 samples.

Results

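The rat genes described here carry no name of their own: in the gene table their Ensembl identifier is paired only with the accession of the genome clone or contig on which they were annotated, such as AC120712.1 or AABR07031184.1. They were taken by that form of symbol alone, with no use of any measured value, and numbered 6104 of the 35291 genes and assembled loci in the table. Of them 5303 bore an AABR accession and 801 an AC accession. RNA-Seq had been run on testes of 3 diabetic and 3 non-diabetic Sprague-Dawley rats, which are outbred. The diabetic rats had been fed a high-fat diet for a month and then given 1 intraperitoneal injection of streptozotocin at 35 mg/kg in citrate buffer, a toxin of the pancreatic beta cell. The non-diabetic rats received the buffer alone, and whether they shared the diet is not stated in the sources used here. All testes were taken 8 weeks later, and the ages of the rats are not given in those sources. Rats are called D1 to D3 and N1 to N3 below. Values are FPKM, the fragments assigned to a gene per kilobase of its transcripts and per unit of library size.

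Clone-named genes are what automatic annotation leaves when no known gene, protein or curated symbol can be attached to a transcript model. They include long non-coding RNAs, processed pseudogenes of abundant mRNAs, members of large gene families in duplicated stretches, and ordinary genes that the annotation failed to join to their names. The testis is known for transcribing far more of such sequence than other organs, above all in meiotic cells and round spermatids, whose chromatin is widely open. The tissue label was matched by the markers, since all 11 germ cell markers examined (among them Prm1, Tnp1 and Acrv1) averaged 1 FPKM or more, while 4 epididymal markers together held 0 to 0.375 FPKM.

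RefSeq lists the clone symbol among the synonyms of a known gene for 53 of the 6104 genes (0.868%), namely 16 protein-coding genes, 1 lncRNA and 36 pseudogenes. For 48 of the 53 no other entry of the gene table bore the RefSeq symbol. An entry of the same gene under another symbol, or without one, would not be seen in this way. Promoter sequences in RefSeq (assembly GRCr8, 250 bases before and 50 after the annotated start, 5′ to 3′ on the strand of the gene) were found for 15 of them. Of these, 4 are shown because no other entry bore the RefSeq symbol of any of them and together they span the levels measured. CG dinucleotides are in capitals, and the remaining bases in lower case.
Srrt promoter (AABR07035787.1), chr12:25029116-25029415, + strand: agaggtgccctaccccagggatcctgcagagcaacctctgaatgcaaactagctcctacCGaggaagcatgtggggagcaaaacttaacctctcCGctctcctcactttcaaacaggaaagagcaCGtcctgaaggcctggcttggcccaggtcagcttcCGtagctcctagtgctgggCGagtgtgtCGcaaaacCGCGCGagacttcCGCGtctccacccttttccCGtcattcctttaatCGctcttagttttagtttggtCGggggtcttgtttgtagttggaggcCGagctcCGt
Antxrl3 promoter (AABR07024653.1), chr16:9338436-9338735, + strand: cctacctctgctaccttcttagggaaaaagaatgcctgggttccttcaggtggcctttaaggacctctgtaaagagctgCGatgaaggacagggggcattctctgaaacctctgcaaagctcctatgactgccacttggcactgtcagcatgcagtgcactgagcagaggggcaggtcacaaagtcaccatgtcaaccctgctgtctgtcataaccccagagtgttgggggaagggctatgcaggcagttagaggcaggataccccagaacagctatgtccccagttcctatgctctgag
Scml1 promoter (AABR07037878.2), chrX:36525818-36526117, + strand: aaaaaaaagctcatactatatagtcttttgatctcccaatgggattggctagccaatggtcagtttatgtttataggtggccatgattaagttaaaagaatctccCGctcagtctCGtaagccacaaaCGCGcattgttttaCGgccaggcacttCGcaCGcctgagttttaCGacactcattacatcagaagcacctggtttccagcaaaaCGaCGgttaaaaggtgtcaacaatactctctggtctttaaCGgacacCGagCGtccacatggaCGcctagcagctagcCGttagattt
Muc2 promoter (AABR07006030.1), chr1:206228785-206229084, + strand: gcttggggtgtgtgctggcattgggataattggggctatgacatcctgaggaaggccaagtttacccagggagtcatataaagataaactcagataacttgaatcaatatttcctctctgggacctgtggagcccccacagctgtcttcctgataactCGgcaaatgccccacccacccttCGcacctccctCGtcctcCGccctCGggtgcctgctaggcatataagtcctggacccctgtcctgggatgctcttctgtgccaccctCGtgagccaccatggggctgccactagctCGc
The letters CG, which read the same on both strands, occurred 16 times in the Srrt window, 15 times in that of Scml1, 7 times in that of Muc2 and once (1) in that of Antxrl3. The median over all 33469 promoters in the reference table was 7. At least 16 occurrences were found in 30.5% of these promoters, at least 15 in 32.0%, at least 7 in 51.4% and at least 1 in 94.5%. The levels of the 4 genes did not follow this order, since Antxrl3, with the fewest CG, stood second. Over the 11 promoters of genes averaging 0.5 FPKM or more the median was 14 CG, and over the other 4 it was 12.5.

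Srrt, which encodes a cap-binding partner needed for the processing of small RNAs, was the highest of the 53. Its clone-named entry had 60.5, 64.2 and 58.1 FPKM in D1 to D3 and 60.1, 56.7 and 62.4 FPKM in N1 to N3, and the groups overlapped almost completely. Antxrl3, an anthrax toxin receptor-like gene, had 17.6, 18.4 and 19.8 FPKM in D1 to D3 and 19.0, 22.4 and 21.5 FPKM in N1 to N3. Scml1, a Polycomb-group relative of the male germ line, had 2.25 to 3.01 FPKM in D1 to D3 and 2.01 to 2.76 FPKM in N1 to N3. Muc2, which encodes the secreted mucin of the intestine, stayed between 0.0335 and 0.0792 FPKM in the 6 rats. Other known genes with no further entry under their RefSeq symbol were Diaph2, a formin that organises actin, with a mean of 4.08 FPKM, Fastkd5, which acts in the processing of mitochondrial RNA, with 3.44 FPKM, and Hspg2, the basement membrane proteoglycan perlecan, with 1.63 FPKM.

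Among 17 pseudogenes outside the receptor families, which are mostly copies of other mRNAs, 7 averaged 5 FPKM or more and 2, Polr2l-ps1 and Ndufs5-ps1, were listed at 0 in every rat. Eno1-ps1, a pseudogene of the glycolytic enzyme enolase, had 24.2 to 31.4 FPKM, and Nek2l1, a pseudogene related to the centrosomal kinase Nek2, had 24.9 to 30.1 FPKM. Their named relatives Eno1 and Nek2 had means of 272 and 164 FPKM, so the copies stood at 10.4% and 16.8% of them per kilobase. Rpl37a-ps12 and Rps28-ps1, copies of ribosomal protein genes, reached means of 21.8 and 19.6 FPKM, which was 39.6% and 25.6% of Rpl37a and Rps28. Other copies stood lower or higher against their relatives: Rps2-ps6 and Rpl37a-ps5 were at 0.595 and 0.143 FPKM, or 0.452% and 0.260% of the higher Rps2 entry and of Rpl37a, while Sms-ps2, at 3.19 FPKM, was at 116% of Sms. How reads were shared between such copies and their source genes is not given in the sources used here, and the values of both are uncertain for that reason. Pseudogenes of olfactory and vomeronasal receptors had lower listed values. Of 19 such genes 10 were listed at 0 in every rat and the highest mean was 0.274 FPKM, whereas 24 of the other 34 matched genes reached 0.5 FPKM. The zeros among them cannot be read as absence of expression.

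**Figure D1:**
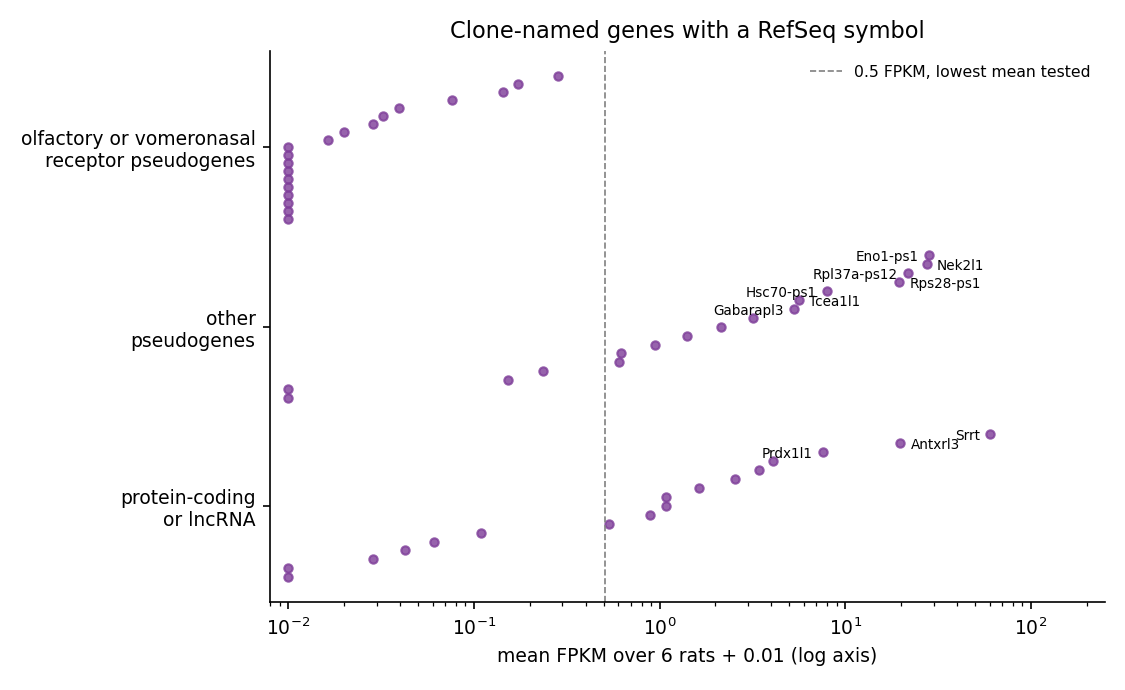
Mean FPKM over the 6 rats (log axis, with 0.01 added) of the 53 clone-named genes with a RefSeq symbol, 1 point a gene, ordered by level within each class. No olfactory or vomeronasal receptor pseudogene reaches the dashed line at 0.5 FPKM, while Srrt lies at 60.3 FPKM.

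None of the 24 matched genes that could be compared changed 2-fold at an unadjusted p-value below 0.05 in limma, and 1 of them had such a p-value at a smaller fold. Over everything compared, 1.24% met both conditions and 7.46% had such a p-value. That gene was Hsc70-ps1, a copy of the constitutive heat shock chaperone, with 6.89, 6.80 and 8.28 FPKM in D1 to D3 against 8.73, 9.07 and 8.26 FPKM in N1 to N3 (log2 fold change -0.25, adjusted p = 0.666, limma). Its groups overlapped narrowly, through D3 and N3. A further 9 clone-named genes had a description of their own in the table. AC094212.1, described as triosephosphate isomerase, had 10.2 to 13.4 FPKM, AC135696.1, described as the chromatin protein Hmgb1, had 4.03 to 5.86 FPKM, and AC129054.1, described as the olfactory receptor Olr1366, had 1.89 to 3.10 FPKM.

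Most clone-named genes had low values. A value of 0 in all 6 rats was listed for 1321 of 6104 (21.6%), against 11.6% of the 23888 genes with an ordinary name, and 2860 were above 0 in every rat. A listed 0 does not show that a gene was silent, since Polr2l, a subunit of RNA polymerase II that every cell uses, was also listed at 0 in all 6 rats. The median of the mean level was 0.177 FPKM (interquartile range 0.0130 to 0.990), compared with 1.13 FPKM (0.0844 to 8.93) for named genes. In all, 1519 clone-named genes averaged 1 FPKM or more and 243 averaged 10 FPKM or more. Together they took up 4.26%, 4.15% and 3.97% of the summed FPKM in D1 to D3 and 4.39%, 4.57% and 3.88% in N1 to N3, so the groups overlapped in this share. The number listed above 0 ranged from 3726 in D2 to 3834 in D3.

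The highest of all was AABR07072283.1 (ENSRNOG00000047991), with 3777, 3880 and 2661 FPKM in D1 to D3 and 2900, 4806 and 2411 FPKM in N1 to N3. Next came AABR07064724.1 (ENSRNOG00000046615), with 2532, 2660 and 1898 FPKM against 1895, 3151 and 1514 FPKM. Both were highest in N2 and lowest in N3, and together they made up 0.866% (N3) to 1.66% (N2) of a library's summed FPKM. AABR07070277.2 stood at 481 to 608 FPKM, AABR07054547.1 at 255 to 351 FPKM and AC099089.1 at 243 to 303 FPKM. AABR07067812.1, AC135443.1 and AC103129.3, the remaining genes of the 10 highest apart from a pair described further on, had means of 228, 216 and 144 FPKM. For these 8 genes the groups overlapped, and the log2 fold changes lay between -0.11 (AABR07054547.1) and 0.17 (AABR07064724.1).

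Whether clone-named genes vary more between rats than named genes of like level was examined in classes of mean FPKM. Only genes averaging 0.5 FPKM or more entered, which left 2160 clone-named (35.4%) and 14113 named genes (59.1%). Between 0.5 and 1 FPKM the median within-group SD on the log2(FPKM + 0.1) scale was 0.532 for clone-named genes and 0.349 for named genes. It fell to 0.288 and 0.179 at 2 to 5 FPKM, and to 0.148 and 0.0927 at 20 FPKM or more. In each of the 5 classes the clone-named genes had the larger median. Transcript length is not in the table, and its part in the wider spread was not tested.

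Groups that did not overlap, with all 3 diabetic values on one side of all 3 non-diabetic values, were counted next. They were found for 233 of 2160 clone-named genes (10.8%), against 13.0% of all 20338 genes and loci compared and 13.6% of named genes. Within the level classes the share ran from 7.03% (20 FPKM or more) to 12.5% (1 to 2 FPKM) for clone-named genes, and was 10.7% to 16.8% for named genes, higher in every class. Weighted to the levels of the clone-named genes, the share of named genes was 15.0%. The difference in these shares is given as a description and has no test.

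**Figure D2:**
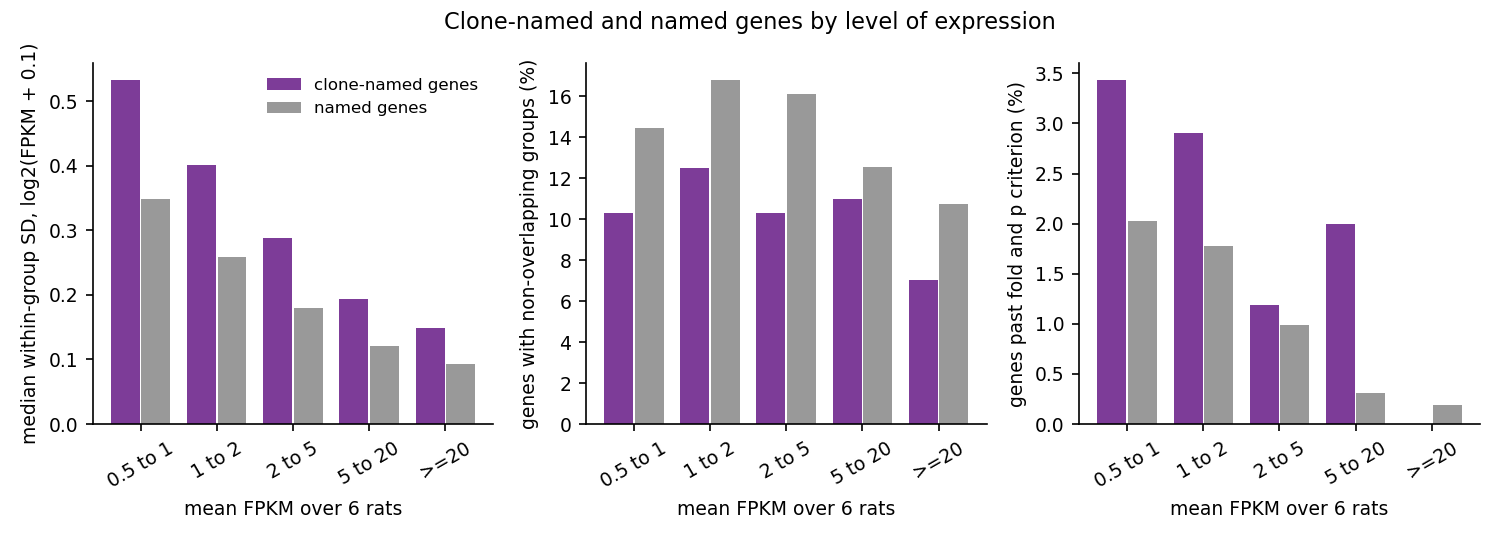
Median within-group SD of log2(FPKM + 0.1), share of genes whose diabetic and non-diabetic values do not overlap, and share past the fold and p criterion, by class of mean FPKM over the 6 rats. Clone-named genes have the larger SD and the smaller non-overlapping share in all 5 classes, and the larger share past the criterion in all classes but the highest, where it is 0 of 128.

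The comparison of diabetic with non-diabetic testis used a criterion of a 2-fold or larger change in either direction (1 on the log2 scale) together with a limma p-value below 0.05 before adjustment. It was passed by 51 of 2160 clone-named genes (2.36%), against 1.24% of everything compared and 0.829% of named genes. Higher in diabetic testis were 23 (1.06%, against 0.398% of everything compared) and lower were 28 (1.30%, against 0.846%). At the levels of the clone-named genes the share of named genes past the criterion was 1.37%. The p-value alone, at any fold, was below 0.05 in limma for 8.52% of clone-named genes. It was so for 7.37% of named genes at those levels and for 7.46% of everything compared. The differences between these shares were not tested. Of the loci assembled from the reads 2.52% passed, and of genes with provisional symbols 1.28% passed and 10.8% had groups that did not overlap. Of the 51 genes 37 had groups that did not overlap, against 197 of 253 past the criterion over everything compared and 101 of 117 named genes. For groups that do not overlap an exact permutation test can only give p = 0.1, the smallest that 3 against 3 rats allow, so it adds nothing to the separation. Levels of the 51 genes were low, with medians of 1.19 FPKM for the higher and 1.09 FPKM for the lower genes. None of the 51 averaged 20 FPKM or more. Over all 2160 genes the median log2 fold change was -0.03, against -0.02 over everything compared.

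With adjustment over everything compared, 1 clone-named gene had an adjusted p-value below 0.05 in limma, where 0.0344% of everything compared did. AC120712.1 (ENSRNOG00000046335) had 0.121, 0.104 and 0.108 FPKM in D1 to D3 and 4.15, 4.04 and 3.14 FPKM in N1 to N3. The diabetic values lay close together just above 0 and every non-diabetic value was far above them. The log2 fold change was -4.19 ± 0.24 (SE, adjusted p = 0.00376, limma). Without N3 the adjusted p was 0.0633, and over the other rats left out in turn it was 0.0158 to 0.0389.

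Among the genes higher in diabetic testis, AABR07031184.1 (ENSRNOG00000056808) came closest to the adjusted threshold. It had 1.60, 2.06 and 1.58 FPKM in D1 to D3 and 0.248, 0.148 and 0.114 FPKM in N1 to N3, with a clear gap between the groups. The log2 fold change was 2.80 ± 0.32 (SE, adjusted p = 0.0559, limma). AC117058.1 had 0.687, 3.07 and 2.34 FPKM against 0.131, 0.128 and 0.146 FPKM, so that D1 stood nearer to the non-diabetic rats than to D2 and D3 in FPKM. AABR07000733.1 had 1.70, 2.24 and 2.23 FPKM against 0.621, 0.0746 and 0.277 FPKM. AABR07058815.1 had 1.79, 1.13 and 1.52 FPKM against 0.354, 0.491 and 0.329 FPKM. AABR07000733.1 and AABR07058815.1 had log2 fold changes of 2.56 and 1.68 (adjusted p = 0.282 and 0.207, limma). Genes named here for their fold were taken only where the groups did not overlap, so their separation was a condition of the choice. AABR07050482.1, AABR07007086.1 and AABR07069587.2 passed the criterion with smaller log2 fold changes of 1.41, 1.17 and 1.13 (adjusted p = 0.419 to 0.519, limma). AC094241.1 was listed at 0 in N3 and at 1.42 to 4.43 FPKM in the other rats. AABR07002351.2 was separated only by 1.60 FPKM in D3 against 1.59 FPKM in N1. The adjusted p was 0.649 for each of these genes (limma). Of the 23 higher genes 17 had an adjusted p above 0.5 (limma).

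Genes lower in diabetic testis had means of 0.514 to 5.50 FPKM. AABR07032747.1 (ENSRNOG00000058730) had 2.70, 3.0 and 3.99 FPKM in D1 to D3 and 8.13, 7.36 and 6.82 FPKM in N1 to N3, with little spread within either group. Its log2 fold change was -1.19 ± 0.16 (SE, adjusted p = 0.125, limma). AABR07067556.1 had 1.47, 0.690 and 1.66 FPKM against 6.83, 4.51 and 3.76 FPKM (log2 fold change -1.94 ± 0.35, adjusted p = 0.266, limma). AABR07012635.1 had 0.596, 0.395 and 0.900 FPKM against 1.79, 1.83 and 1.65 FPKM, and AC123293.1 had 0.539, 1.11 and 0.587 FPKM against 1.63, 2.03 and 2.14 FPKM. As with the higher genes, those named here were taken only where the groups did not overlap. AABR07017270.1, AABR07071101.2, AABR07043701.1 and AABR07026302.1 had log2 fold changes of -1.63 to -1.30 (adjusted p = 0.419 to 0.649, limma). Their higher group was near 1 to 2 FPKM. AABR07013073.3 was listed at 0 in D1 and D2 and at 0.433 FPKM in D3, just below the lowest non-diabetic value of 0.481 FPKM. Its adjusted p was 0.539 (limma). Of the 28 lower genes 15 had an adjusted p above 0.5 (limma).

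**Figure D3:**
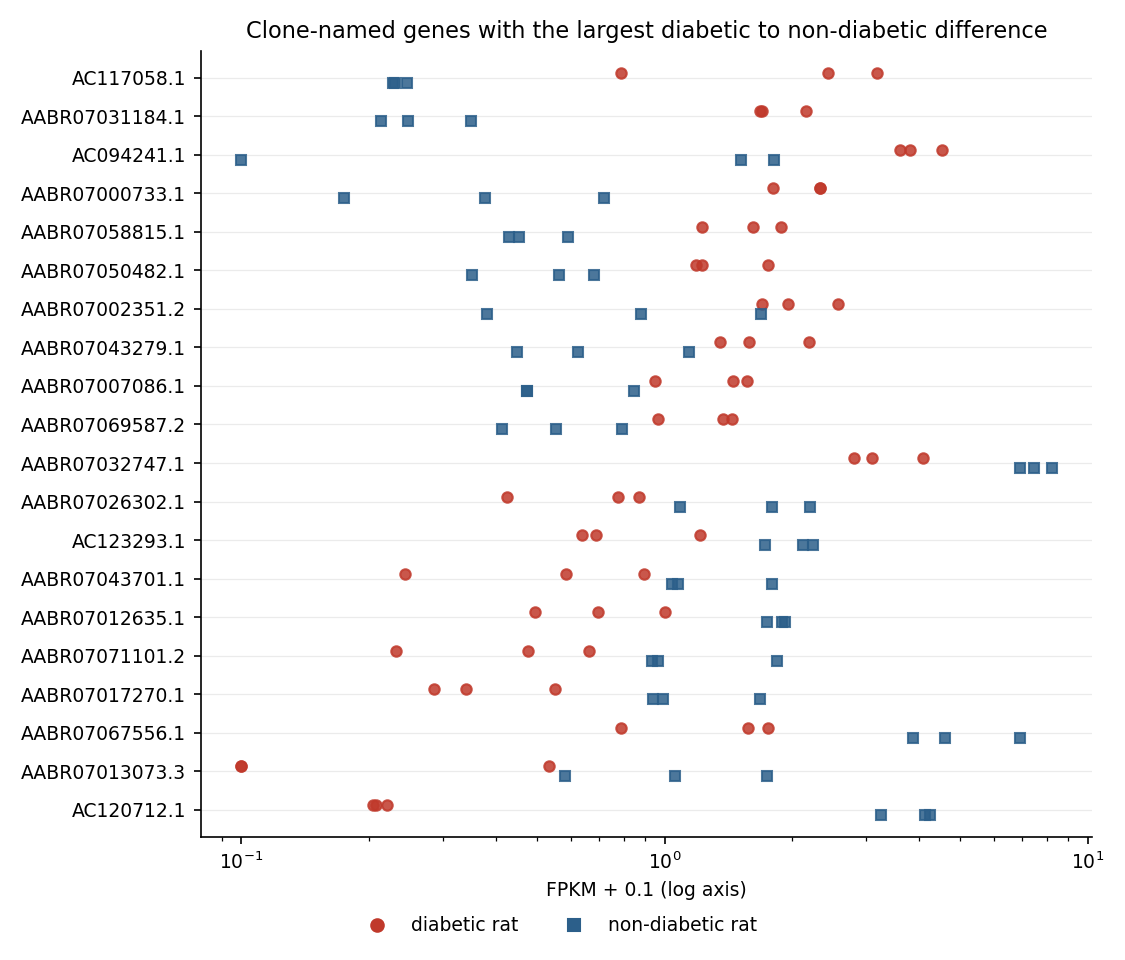
FPKM in each rat (log axis, with 0.1 added) of the 20 clone-named genes with the largest fold change among those past the criterion with non-overlapping groups and an average of 1 FPKM or more in the higher group, 10 higher (top) and 10 lower (bottom) in diabetic testis. Circles are diabetic and squares non-diabetic rats, and AC120712.1 and AABR07031184.1 show the widest clear gaps between groups.

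The summed markers of some other cell types differed between the groups in these samples of whole tissue. The summed level of 5 Leydig cell markers found (Star, Cyp11a1, Cyp17a1, Insl3 and Lhcgr, each averaging 1 FPKM or more) was 26.8 to 55.4 FPKM in D1 to D3 and 81.6 to 115 FPKM in N1 to N3, without overlap, and 4 of the 5 passed the criterion as lower. Summed macrophage and blood markers were 3.53 to 4.85 against 6.07 to 7.36 FPKM, with 2 of 5 averaging 1 FPKM or more and Hbb listed at 0 in 5 rats. Of these Cd163 overlapped between the groups, at 1.52 to 2.44 against 2.26 to 2.65 FPKM, whereas Csf1r, Cd68 and Ptprc did not. None of the 4 compared passed the criterion. Summed adipocyte markers were 4.64 to 5.54 against 6.69 to 9.07 FPKM, again with 2 of 5 at that level. Members of this list disagreed. Adipoq was separated only by 3.845 FPKM in D1 against 3.849 FPKM in N1, and Plin1 overlapped. Lep was low but higher in the diabetic rats, at 0.142 to 0.155 against 0.0271 to 0.0766 FPKM. The sums overlapped for germ cells (12571 to 14062 against 12095 to 14365 FPKM), Sertoli cells (293 to 310 against 247 to 315 FPKM), peritubular and smooth muscle cells (70.3 to 76.3 against 71.7 to 91.2 FPKM) and endothelial cells (2.37 to 3.02 against 2.35 to 3.25 FPKM). Fewer cells of a type and less RNA per cell cannot be told apart here, and the part of these cells in the 28 lower genes was not tested.

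Some genes past the criterion differed between rats of 1 group as much as between groups. AABR07066435.1 had 12.4, 12.7 and 12.3 FPKM in D1 to D3 and 3.999, 11.8 and 4.12 FPKM in N1 to N3, so that N2 stood just below the diabetic rats and only N1 and N3 were far lower. AABR07062183.1 had 3.64 and 3.70 FPKM in N2 and N3 and at most 0.183 FPKM in the other 4 rats. AABR07013410.3 had 1.89 and 1.79 FPKM in the same pair and at most 0.142 FPKM elsewhere. AABR07000398.1 had 4.99 and 2.35 FPKM in D2 and D3 and was listed at 0 in the other 4. These 4 genes were chosen after their values were seen.

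A set of the higher genes had neighbouring accession numbers. The 1869 AABR genes compared were divided by serial number into windows of 1000, of which 68 held at least 10 compared genes. In the window of accessions that begin AABR07043, 9 of 52 passed the criterion (17.3%), 7 higher and 2 lower. Any other of these windows held at most 3 that passed and at most 2 higher, and outside the window 36 of 1817 passed (1.98%). Without this window 16 higher clone-named genes remained of 23. The windows were laid over the data after the results were known, and whether the order of the accessions follows the chromosomes was not tested.

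For some of the genes there and at nearby numbers, N2 and N3 were the lowest rats. In a range that runs from AABR07042607.1 to AABR07043772.1, taken after its values were seen, N2 and N3 were the lowest 2 rats for 22 of 64 compared genes (34.4%), against 111 of the other 2096 (5.30%) and 5.95% of everything compared. For 14 of the 64 (21.9%) the mean of the other 4 rats was at least 2-fold that of N2 and N3, against 41 of the other 2096 (1.96%). The highest of the 14, AABR07043200.1, had 18.5, 33.2 and 33.8 FPKM in D1 to D3 and 22.9, 10.2 and 11.8 FPKM in N1 to N3. AABR07043453.1 had 12.3, 20.9 and 23.02 FPKM against 13.5, 7.35 and 9.17 FPKM. AABR07043271.1 had 4.88, 11.1 and 12.2 FPKM against 7.58, 1.39 and 2.14 FPKM. In all 3 genes N1 lay above D1 and within the diabetic range, so the groups overlapped. AABR07043279.1, the member of the set among the 10 highest folds with separated groups, had 1.25, 2.09 and 1.49 FPKM against 1.04, 0.347 and 0.525 FPKM, and there N1 lay just below D1.

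AABR07043395.1 (ENSRNOG00000055892), with the largest log2 fold change of the 51, belonged to the same set. It had 5.21, 9.65 and 9.57 FPKM in the diabetic rats and 6.07 FPKM in N1, and was listed at 0 in N2 and N3. Over the 13 of the 14 genes with a level above 0 in N2 and N3, the fold of the other 4 rats over that pair was 2.11 to 5.81. N1 was at or above D1 in 11 of the 14 genes, D1 was the lowest diabetic rat in 13, and the groups did not overlap in 3. The criterion was passed by 7, and the adjusted p-values were 0.492 to 0.805 (limma). No other pair of rats was the lowest at 2-fold or more for over 4 of the 64 genes.

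The same profile was seen in genes of a multicopy family described in the table. The glutamate-rich spermatogenesis-associated proteins are encoded in rodents by many similar copies, expressed in the testis and related in sequence to part of Dlg5. Of 4 genes with such a description, all with provisional symbols, 3 were compared and all 3 had N2 and N3 as the lowest rats. LOC685226 had 9.87, 15.6 and 14.2 FPKM in D1 to D3 and 11.5, 3.52 and 3.62 FPKM in N1 to N3. The pair of genes that share the symbol LOC501467 had 9.22, 17.7 and 14.1 against 8.25, 3.05 and 3.73 FPKM, and 3.48, 4.21 and 4.91 against 3.85, 1.16 and 1.27 FPKM. LOC100909409, described as like Dlg5, had 14.8, 22.7 and 22.0 against 17.0, 4.59 and 5.14 FPKM, whereas Dlg5 itself had 2.34 to 3.27 FPKM with no such profile. Of the 7 genes described as Dlg5 or like it, this was the only one with a 2-fold drop in that pair. These genes were picked after their values were seen. Whether the clone-named genes of the range are further copies was not tested, and the values of similar copies are uncertain because reads can match several of them.

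**Figure D4:**
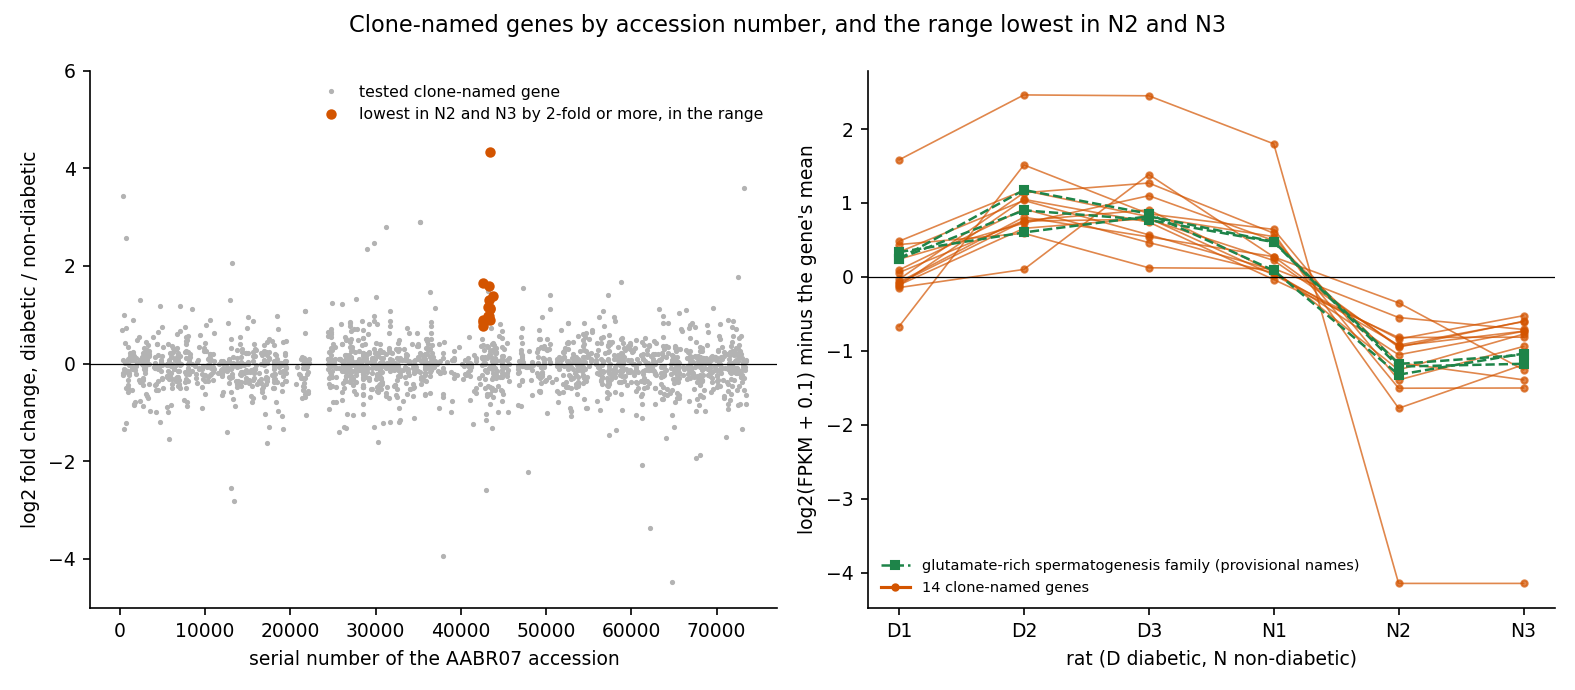
Left, log2 fold change (diabetic over non-diabetic) of the AABR genes compared against the serial number of their accession, with the 14 genes of the range that were lowest in N2 and N3 by at least 2-fold in colour. Right, log2(FPKM + 0.1) of these 14 genes minus each gene's mean, by rat, beside 3 provisional genes of the glutamate-rich spermatogenesis family (dashed), in all of which N2 and N3 are below D1 to D3 and N1.

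A single rat more than 8-fold away from the other 5 was found for 16 of 2160 clone-named genes (0.741%) and 27 of 14113 named genes (0.191%). Weighted to the levels of the clone-named genes, the share of named genes was 0.307%. In 12 of the 16 the rat was low and in 4 it was high. AABR07064716.2, among the 10 highest genes by its mean, had 1848 FPKM in N1 and 0.0700 to 0.0916 FPKM in the other 5 rats. AABR07037925.1, the other highly expressed gene of this kind, had 725 to 914 FPKM in 5 rats and 0.102 FPKM in D2. Neither passed the criterion (adjusted p = 0.843 and 0.847, limma), although their log2 fold changes were -4.46 and -3.94.

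Entries with the opposite profile were looked for in the table after these values were seen. An entry for the signal recognition particle RNA (Metazoa_SRP, ENSRNOG00000060374), the RNA scaffold that directs ribosomes to the endoplasmic reticulum, had 761 FPKM in D2 and was listed at 0 in the other 5 rats, the reverse of AABR07037925.1. AABR07035224.1 and AABR07035218.1 had the same value as each other in every rat, 69.4 to 101 FPKM in 5 rats and 0.122 FPKM in N3. There 2 further entries named Metazoa_SRP, equal to each other, had 67.2 FPKM in N3 and at most 0.739 FPKM elsewhere. For AABR07064716.2 no entry of the opposite profile and like level was found. AABR07028989.1, with 13.1 FPKM in D1 and 0 in the rest, and AC135285.5, with 13.2 FPKM in N1 and at most 0.164 FPKM in the rest, complete the 6 genes with the widest gaps. Between 5 and 14 entries stood apart in the opposite direction in a given rat, unrelated genes among them, and whether any such entry and a clone-named gene hold the same signal was not tested.

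**Figure D5:**
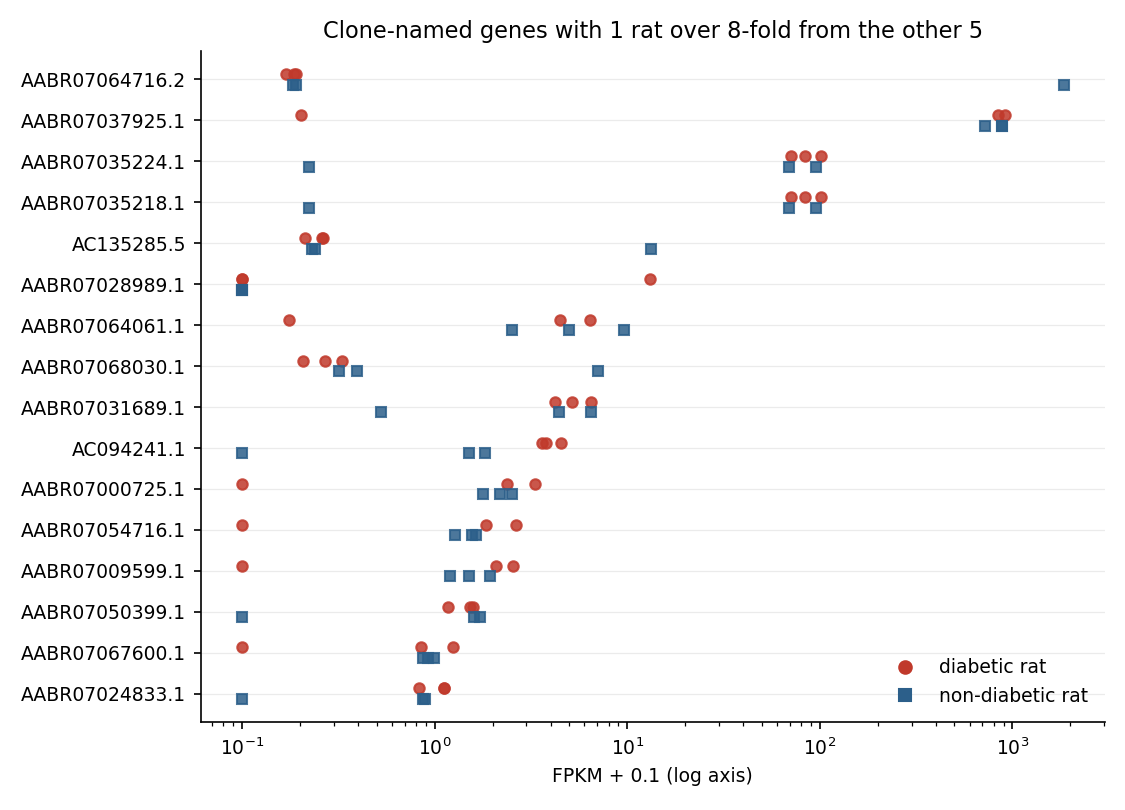
FPKM in each rat (log axis, with 0.1 added) of the 16 clone-named genes in which 1 rat lies more than 8-fold from the other 5. Circles are diabetic and squares non-diabetic rats, and the separated rat belongs to the diabetic group in 7 of the genes and to the non-diabetic group in 9.

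Identical values in all 6 rats, as in that pair, were found for 79 clone-named genes in 41 sets, or 1.65% of the 4783 listed above 0 in some rat, and for 1.48% of such named genes. Only 19 of the sets, with 38 clone-named genes, were above 0 in every rat. Some of the rest shared a single low value in 1 rat and 0 elsewhere, also with small RNA entries such as U6. Of the sets, 7 joined a gene on AABR07028480 with one on AABR07028492. None of the 51 genes past the criterion belonged to a set. The 6104 genes came from 5028 accessions, of which 4243 held 1 gene and 179 held 3 or more. AABR07003935 held the most, 15 genes, of which 1 reached 0.5 FPKM. No accession held 2 genes past the criterion. For 6 of the 51 genes another gene on the accession was compared, and of these 8 neighbours 4 had the sign of their partner. AABR07043001.2 (log2 fold change -1.03) and its neighbour AABR07043001.1 (-1.16, adjusted p = 0.758, limma) were the closest pair.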

How the data were processed

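RNA-Seq of testes from 3 diabetic and 3 non-diabetic rats was used, grouped by the sample labels. Per the study's methods, the authors checked reads by FastQC, set them against rRNA with BWA, aligned them by STAR, assembled them by StringTie and screened transcripts with DESeq2. The build and versions are not given in the sources used here. The deposited values are FPKM per gene, divided by the authors by transcript length and library size, and hold no counts. The label protocol mentions both poly(A) fractions of the RNA and, in 1 place, adipose tissue, whereas the tissue label is testis. Sample titles name circRNA, lncRNA and mRNA.

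Clone-named genes were found by the form of the symbol. These genes, the marker lists and the tests were chosen with earlier results of these data known. Named genes have an Ensembl identifier and a symbol that is neither a clone accession, a LOC or RGD number nor an identifier. Values were transformed to log2(FPKM + 0.1), and the 20338 genes and loci averaging 0.5 FPKM or more were compared in R 4.3.3 by limma 3.58.1 (eBayes with a trend), two-sided, adjusted by Benjamini-Hochberg over all of them. Python 3.11.15, pandas 2.3.3 and scipy 1.17.1 handled the tables. The limma step was checked on made-up data with known changes. In it 99.5% of 200 changed genes were recovered, and 157 unchanged ones of the 20338 also passed the criterion. Labels name no shared animal, so replicate numbers were not used as a block in the main fit. Deviations of same-numbered rats correlated at 0.106, 0.0153 and 0.0979, and those of rats with different numbers at -0.126 to 0.0318. Whether same-numbered rats share a batch was not tested. Nothing states that the 3 rats of a group differ in cage or batch, and p-values measure only the spread between these samples.

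Genes named in the text are those with an adjusted p-value below 0.05, up to 10 higher and 10 lower by fold that passed the criterion without overlap and averaged 1 FPKM or more in the higher group, the 10 highest, genes past the criterion on a shared accession (none), the 6 with the widest gap between 1 rat and the rest, and genes past the criterion with a RefSeq protein (none). Other names were chosen after values were seen, or came from RefSeq and the descriptions. The RefSeq table (GRCr8) was matched through synonyms in place of Ensembl identifiers.

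Depth in reads is unknown. The commonest ratios among low FPKM gave relative depths of 0.893 (N3) to 1.09 (D3). No pair of libraries was identical, and their correlations were 0.957 to 0.966.

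The alternatives tried were another pseudocount (1 or 0.01), a looser or stricter filter (none, or 1 FPKM on average), TPM or median-ratio scaling, eBayes without trend or robust, the replicate block, leaving out each rat, adjusted p-values with the fold criterion, and symbols of a single entry. Identical entries counted once, entries with a 0 left out and the accession window left out were added after seeing the data.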

Additional observations from a re-analysis of the deposited data

How the results depend on the processing

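The count of 51 clone-named genes past the criterion fell to 14 with a pseudocount of 1, where 8 were higher and 6 lower, and to 28 of 1519 with a mean of at least 1 FPKM, where 13 were higher and 15 lower. It rose to 169 of 4783 with no filter, where 71 were higher and 98 lower. All 14 and all 28 were among the 51, and 50 of the 51 were among the 169. With adjusted p-values beside the fold criterion 1 was left, which was lower (0 higher), and 3 named genes were left of 117. The named genes numbered 33 with a pseudocount of 1 and 340 with no filter. The other scalings and eBayes settings gave 43 to 65 clone-named genes, and with identical entries counted once, chosen after seeing the data, 51. The share of lower genes was 54.9%, 42.9% with a pseudocount of 1 and 50.0% with median-ratio scaling.

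Leaving out each rat in turn gave 50 to 74 clone-named genes past the criterion, 15 to 43 higher, 29 to 41 lower, 0 to 2 with an adjusted p-value below 0.05, and 106 to 175 named genes. The 15 higher genes came without D2 and the 43 without N1, of which 13 lay in the accession range from AABR07042607.1 to AABR07043772.1. Non-overlapping groups then made up 19.6% to 21.5% of clone-named genes, since 2 rats are more easily separated from 3, and 8.97% with no filter. Shares over everything compared are not given for these settings, so the clone-named genes cannot be set against them there. The clone-named genes with an adjusted p-value below 0.05 in limma numbered 2 with a pseudocount of 1, with eBayes without trend and with entries holding a 0 left out (added after seeing the data). Median within-group SDs with a pseudocount of 1 were 0.240 at 0.5 to 1 FPKM and 0.251 at 1 to 2 FPKM for clone-named genes, and 0.163 and 0.161 for named genes, so the order of the kinds was kept there. A pseudocount of 1 shrinks log2 differences between values near 1 FPKM by its arithmetic. Apart from this and from fewer genes or samples entering, the cause of these shifts was not tested.

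With the replicate number as a block 51 clone-named genes passed, of which 45 were shared with the fit without it, and 0 had an adjusted p-value below 0.05, as AC120712.1 reached 0.0518. D1, D3, N1 and N3 correlated best with the rat of their own number in the other group, and D2 and N2 did not. Of the 20 genes named for their change, 6 kept direction and criterion under every setting that gave a value, the others lost the criterion in 34 of 329 values in all, and 0 reversed. The adjusted p-value of AC120712.1 ranged from 0.00176 to 0.0633 over its alternatives.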

Other observations

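Below the level at which genes were compared, 25 clone-named genes were listed at 0 in all 3 diabetic rats and above 0 in all 3 non-diabetic rats, and 9 showed the reverse (0.410% and 0.147% of 6104). Among all 35291 entries, 69 and 45 did so (0.196% and 0.128%), and among named genes 41 and 32 (0.172% and 0.134%), and these shares were not tested against each other. None of these clone-named genes reached a mean of 0.5 FPKM. AABR07035289.1, with 0.435, 1.07 and 0.338 FPKM in D1 to D3 and 0 in N1 to N3, and AABR07014317.1, with 0.417, 0.921 and 0.0776 FPKM in the same rats and 0 in the others, were among the 9. They were picked for their level after the values were seen.

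The profile with N2 and N3 lowest by at least 2-fold was also counted by kind of gene. It was held by 55 of 2160 clone-named genes (2.55%), 33 of 2656 loci assembled from the reads (1.24%), 13 of 1328 genes with provisional symbols (0.979%), 2 of 81 genes with no symbol (2.47%) and 52 of 14113 named genes (0.368%), against 0.762% of everything compared. Outside the accession range described above, AABR07018447.1 had 3.31, 4.18 and 4.30 FPKM in D1 to D3, 8.32 FPKM in N1, and 0.840 and 0.957 FPKM in N2 and N3. A Dlg5-like gene, LOC102550797, followed another pair of rats, with 13.4 FPKM in D2 and 9.57 FPKM in N2 and 1.47 to 1.64 FPKM in the other 4.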
